A study of Bos taurus with 14 samples.

Results

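The miR-2284 and miR-2285 superfamily is a large group of closely related miRNAs known from ruminants, and it was followed here in the white cells of peripheral blood (PWBC) of heifers. Members were all mature miRNAs of the count table whose name begins with bta-miR-2284 or bta-miR-2285. These were 148 of 1030 mature names (14.4%), 31 of them named miR-2284 and 117 named miR-2285. The 14 Angus-Simmental crossbred heifers were bled at weaning, before their first breeding season, and were grouped by its outcome. The 7 fertile heifers (FH) became pregnant to artificial insemination (AI), and the 7 subfertile heifers (SFH) are labelled as not pregnant. By the study's methods, SFH were not pregnant after AI and a following period with bulls, and heifers that conceived by natural service formed a class that was not sampled here. The labels name no treatment, each heifer gave 1 small RNA library, and heifers are named by their number in the labels. Since the label is the outcome of a breeding season that followed the sampling, it marks later pregnancy and not a condition measured at weaning.

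A miRNA is cut from a hairpin precursor, is loaded into an Argonaute protein and pairs with target mRNAs through its seed, a short stretch near its 5′ end, which lowers the stability or translation of those mRNAs. Many miRNA families hold copies that differ in few bases, and several genomic precursors can give the same mature miRNA. In such families a short sequenced read can match several names equally well, so the count of 1 name is not always separate from that of the next.

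The libraries held between 1754971 and 5468341 counts on mature miRNAs (median 2870197), so that 3 counts, taken as the detection floor, were worth 0.549 to 1.71 CPM, the count of a miRNA per 1000000 counts on all mature miRNAs of that heifer. This level was not divided by length, and PCR copies were not removed, so counting precision understates the error. All 5 leukocyte miRNAs that were checked (bta-miR-150, bta-miR-223, bta-miR-142-5p, bta-miR-142-3p and bta-miR-155) had counts in every heifer, and their sum was 71858 to 131583 CPM in FH and 63981 to 146312 CPM in SFH. The 4 lymphocyte miRNAs (bta-miR-150, bta-miR-342, bta-miR-181a and bta-miR-181b) summed to 64598 to 120569 CPM in FH and 59784 to 135103 CPM in SFH. The 3 miRNAs of granulocytes and monocytes (bta-miR-223, bta-miR-24-3p and bta-miR-27a-3p) summed to 19221 to 31176 CPM and 25047 to 35493 CPM. Since bta-miR-150 and bta-miR-223 are also in the leukocyte list, these sums are not separate checks. bta-miR-150 alone was 34290 to 92298 CPM. Of 3 erythroid miRNAs, 2 were detected, with a sum of 1574 to 3712 CPM in FH and 1462 to 9234 CPM in SFH, while bta-miR-144 was at 0 in every heifer. The 2 platelet and endothelial miRNAs reached 68.3 CPM in FH and 46.9 CPM in SFH, the liver miRNA bta-miR-122 reached 4.65 CPM and 2.30 CPM, and the 3 muscle miRNAs reached 85.6 CPM and 275 CPM. In blood samples of this kind, fewer cells of a type and less of a miRNA per cell cannot be told apart, and the part of the cell composition in the levels below was not tested.

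More of the superfamily than of the other miRNAs had at least 1 count, but fewer of its members were abundant enough to be tested. A count in at least 1 heifer was found for 107 of the 148 members (72.3%), against 57.5% of the 882 other names. The other 41 members had none in any heifer. Among the 107, 20 members had a count in all 14 heifers, 50 in at least 7, 57 in 1 to 6, and 22 in only 1. The limit for testing, 1 CPM or more in 7 or more heifers, was met by 42 members (28.4%), against 33.9% of the other names. The 65 members with a count that missed this limit held 1.03% of the counts of the superfamily. Of the miR-2284 names, 23 had a count, 10 were tested and 9 had a count in every heifer. Of the miR-2285 names, 84 had a count, 32 were tested and 11 had a count in every heifer.

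Some of the rarely found members were not low in the library that held them. Of the 22 members with a count in a single heifer, 7 had at least 10 counts there, and this was also so for 43 of the 85 other miRNAs found in a single heifer. The count of bta-miR-2284r, for example, was 43 in 1 heifer and 0 in the other 13 (this member is named because of that value, after it was seen).

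Few members dominated. By mean CPM over the 14 heifers, 3 members exceeded 1000 CPM, 6 lay between 100 and 1000 CPM, 19 between 10 and 100 CPM, 36 between 1 and 10 CPM, and 43 were below 1 CPM. The leading member, bta-miR-2284x, had a mean of 1109 CPM and was the 66th miRNA of the whole table by level. It was followed by bta-miR-2284y and bta-miR-2285av (both 1108 CPM), bta-miR-2284aa and bta-miR-2284z (both 375 CPM), bta-miR-2285t (231 CPM), bta-miR-2285by and bta-miR-2284ab (both 182 CPM) and bta-miR-2285k (109 CPM). The 3 leading members held 58.7% of the counts of the superfamily, the 5 leading members 72.3% and the 8 leading members 82.5%. The plot of CPM by member and heifer shows these leading rows and the gaps among the lower members.

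**Figure D1:**
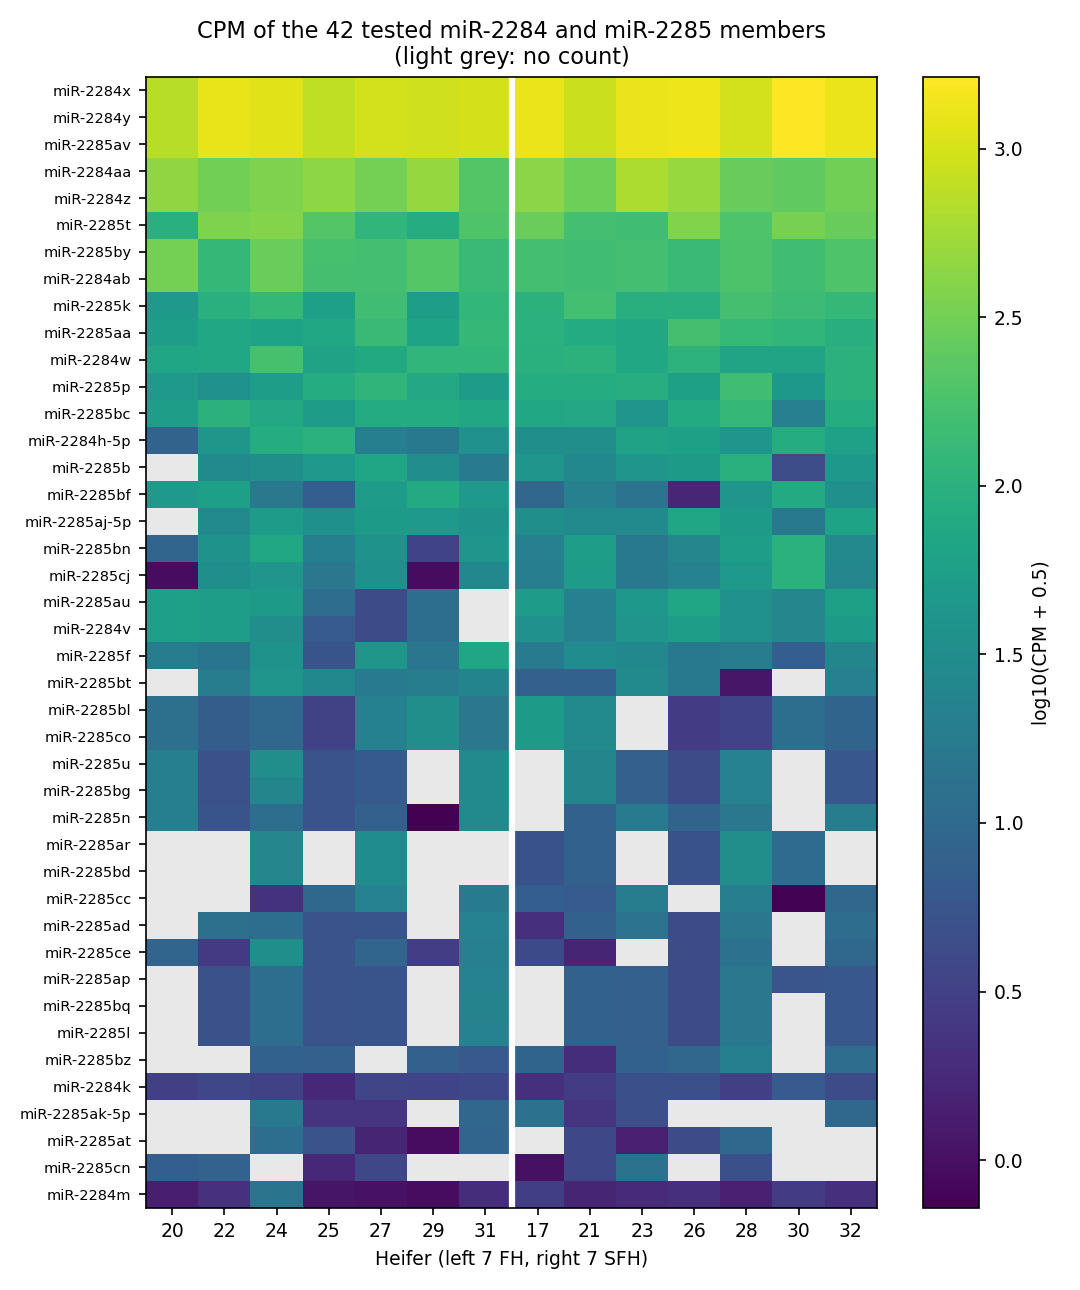
CPM of the 42 tested members (rows, ordered by total count over the heifers) in each heifer (columns, 7 FH on the left and 7 SFH on the right), as log10(CPM + 0.5), with heifers that had no count in light grey. The first 3 rows differ by at most 0.789%, the next 2 rows are identical, and 22 of the 42 members had no count in at least 1 heifer.

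Several of these leading names listed the same or nearly the same counts. The counts of bta-miR-2284y and bta-miR-2285av were identical in all 14 heifers. Those of bta-miR-2284x equalled them in 10 heifers and differed by at most 0.789% in the other 4. The counts of bta-miR-2284aa and bta-miR-2284z were identical in all heifers. Those of bta-miR-2284ab and bta-miR-2285by were equal in 13 heifers and differed by 2.22% in 1. Further down, and named here because of this after their counts were seen, bta-miR-2285bl and bta-miR-2285co had identical counts, as did bta-miR-2285ar and bta-miR-2285bd, while bta-miR-2285l and bta-miR-2285bq were equal in 13 heifers and differed by 1.35% in 1.

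When members whose counts differed by at most 5% in every heifer were taken as 1 profile, the 107 members with a count formed 95 profiles, and 11 of these joined 2 or 3 names (23 members in all). The 42 tested members formed 35 profiles. Of the tested members, 8 (19.0%) had exactly the counts of another tested name in every heifer, against 8 of the 299 other tested miRNAs (2.68%). Over the whole table, 67 of the 190 superfamily entries with a count (35.3%) were identical to an entry of another name, against 61 of 566 entries of other miRNAs (10.8%). With at least 20 counts, where equal counts by coincidence are rarer, the shares were 31.7% of 142 entries and 6.47% of 479 entries. These shares describe the table and were not tested, since near-identical names are not independent.

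Sharing was also seen within single heifers among low members. In FH heifer 25, 10 different members had a count of exactly 22. In SFH heifer 21, 9 members had a count of 20, and in SFH heifer 26, 9 members had a count of 10. The members bta-miR-2285ad, bta-miR-2285ap, bta-miR-2285bq and bta-miR-2285l belonged to all 3 groups (named after these values were seen). Whether such equal counts are the same reads cannot be read from the table, so the number of members with a count is a number of names and not of separate molecules.

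Some mature names were listed in several entries, and these entries could differ far more than the heifers did. The 148 members filled 242 entries, 94 of which repeated a name. These repeats belonged to 41 members with up to 11 entries each, and the entry with the highest total was used. Of the 35 such members with a count, 10 had the same counts in all their entries. The highest and lowest entries above 0 differed by over 1.5-fold in 11 members and by up to 1.5-fold in 24. For bta-miR-2284y the highest of 8 entries had a mean of 1108 CPM and the lowest 47.8 CPM, a ratio of 22.8, and its second highest total was 2301 counts against 46624. For bta-miR-2285av the highest of 9 entries had 1108 CPM and the lowest 29.1 CPM, a ratio of 37.7. The entries of bta-miR-2285by had 182 and 7.02 CPM (a ratio of 25.5), and those of bta-miR-2284h-5p 48.4 and 0.435 CPM (a ratio of 173). In contrast, the 7 entries of bta-miR-2284z differed by a ratio of only 1.02 and those of bta-miR-2285k by 1.19, while the 11 entries of bta-miR-2284aa differed by 2.43. All 8 entries of bta-miR-2284y were identical to an entry of bta-miR-2285av, and all 7 of bta-miR-2284z to an entry of bta-miR-2284aa. The table gives the mature name alone, so an entry could not be assigned to its precursor.

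**Figure D2:**
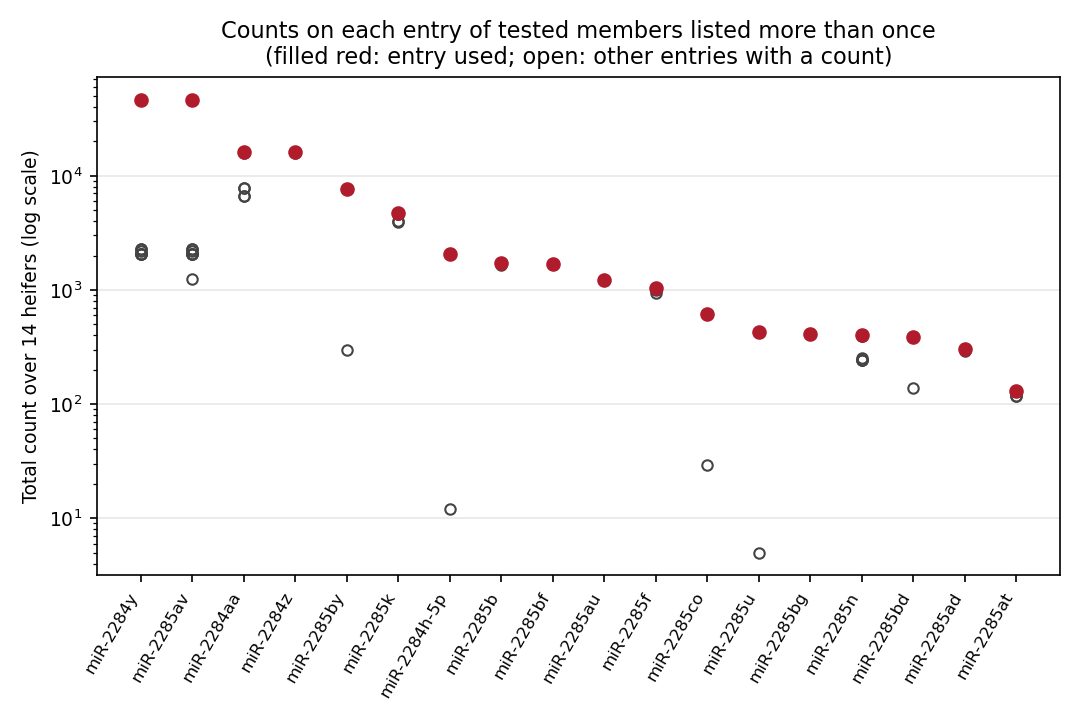
Total count over the 14 heifers (log scale) of each entry of the 18 tested members that are listed more than once, the entry used in red and the other entries with a count as open circles, which lie under the red point where totals are equal. For miR-2284y and miR-2285av 1 entry stands far above all others, whereas for miR-2284z and miR-2285b the entries coincide.

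Precursor genes were looked up by name in the RefSeq annotation of the ARS-UCD2.0 assembly. This is another build than the ARS-UCD1.2 genome used for the counts, so no position is given. A precursor gene was found for 140 of the 148 members, 191 genes in all, or 18.5% of the 1032 miRNA genes of that annotation. Of these 191, 125 (65.4%) overlapped a protein-coding gene on either strand, against 66.1% of the 841 other miRNA genes. The leading bta-miR-2284x has 1 gene, within TIAM1, which encodes an exchange factor for the small GTPase RAC1. That of bta-miR-2285t lies within FCGR2B, the inhibitory Fc gamma receptor of B and myeloid cells. bta-miR-2284ab lies within AFF1, which encodes a subunit of the super elongation complex, bta-miR-2284w within DOCK11, an exchange factor for CDC42, and bta-miR-2285aa within ERCC3, a helicase subunit of TFIIH. bta-miR-2284z has 7 genes, 6 of them within protein-coding genes (AP3B1, C2CD3, MCTP1, PLEKHA5, PTPRB and SOS1). bta-miR-2284y also has 7, of which 4 lie within such genes (PAX3, RBBP8, SELENOI and STK32A). bta-miR-2284aa has 4, of which 1 lies within PIK3R5, a regulatory subunit of phosphoinositide 3-kinase gamma. bta-miR-2285p lies within MPP7 and bta-miR-2285bc within ORC1. Whether these genes share a function was not tested. The number of genes and the level were weakly related across the 140 members (Spearman rho 0.13, a description without a test, since members share counts and genes share sequence). The number of entries exceeded the number of genes in 21 members, equalled it in 119 and was below it in 0. For bta-miR-2285av there were 9 entries for 1 gene.

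The superfamily held 0.441 to 0.695% of the miRNA counts of a heifer, and how repeated names were treated changed this share more than the heifer did. With the highest entry of each member, the share was 0.518 ± 0.0727% in FH (SD, n = 7, 0.441 to 0.644%) and 0.612 ± 0.0783% in SFH (SD, n = 7, 0.475 to 0.695%). The lowest share was in FH heifer 20 and the highest in SFH heifer 30, and the ranges of the groups overlapped. The difference of 0.0948 percentage points is given without a test, since a sum over members holds the same counts several times. When each profile was counted once, the shares were 0.263 ± 0.0425% and 0.305 ± 0.0286%, and with all entries summed they were 0.823 ± 0.0995% and 0.943 ± 0.151%. Pooled over the heifers, the members held 238211 counts (0.553% of all), and 119538 (0.278%) with each profile counted once, a ratio of 1.99. The profile led by bta-miR-2284x then made up 39.0% of the superfamily, and together with the profile of bta-miR-2284aa and bta-miR-2284z 52.6%.

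**Figure D3:**
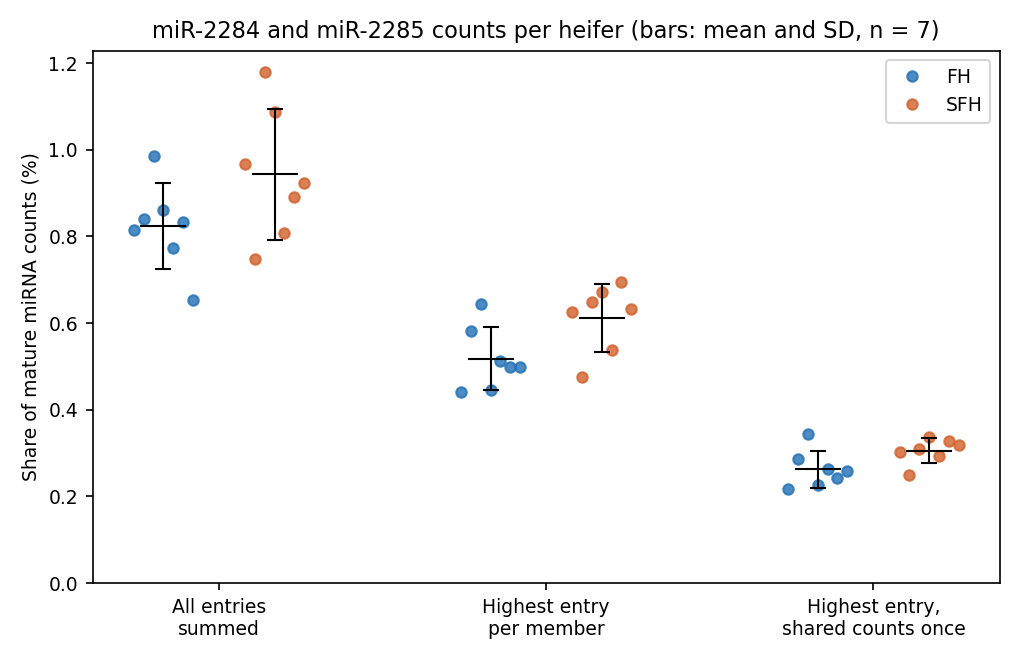
Share of all mature miRNA counts that fell on the superfamily in each heifer (points, FH in blue and SFH in orange, black bars mean and SD, n = 7), with all entries summed, with the highest entry per member, and with shared counts taken once. The FH and SFH points overlap in each version, and the level falls from 0.823% through 0.518% to 0.263% in FH.

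The number of members with a count per heifer was 49.1 ± 11.6 in FH (SD, n = 7, 33 to 65) and 55.0 ± 5.48 in SFH (SD, n = 7, 44 to 60). After thinning each library to the smallest total, the expected numbers were 46.6 ± 11.5 and 52.9 ± 6.49. Without FH heifer 20 the difference of 5.86 members between the group means became 3.17. Both the lowest number (33, heifer 20) and the highest (65, heifer 24) were FH heifers. Heifer 24 had the smallest library of all 14.

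None of the 42 members passed the thresholds of the comparison between SFH and FH. The question of this comparison was which miRNAs of PWBC differ at weaning between heifers that later did or did not conceive. With edgeR's quasi-likelihood test, 0 of the 42 members had p of at most 0.05 together with a log2 fold change beyond ± 0.5, while 13 of all 341 tested miRNAs did (3.81%). With the same test, 0 members had an unadjusted p of at most 0.05, against 5.87% of all tested miRNAs, and 0 passed after Benjamini-Hochberg adjustment, as was so for 0 of the 341 (0.0%). By exact two-sided permutation tests over the 3432 arrangements of the heifers, 0 members had a p of at most 0.05, against 6.16% of all tested. DESeq2 placed 0 members past the thresholds, against 16 of all 341 (4.69%), and limma-voom placed 2, against 23 of all 341 (6.74%). Without the filter on low CPM, edgeR placed 19 of 107 members past them, against 126 of all 614 (20.5%), and these 19 had a count in 1 to 3 heifers. The log2 fold change was above 0 in 20 of the 42 members, against 55.1% of all tested. With each profile of shared counts taken once, it was above 0 in 17 and below 0 in 18. Its median was −0.05 over the members and 0.06 over all tested, and the median absolute log2 fold change was 0.29 and 0.32. No member, and no other tested miRNA, had groups whose values did not overlap.

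The members were measured less precisely than the tested miRNAs as a whole. The median standard error of the log2 fold change was 0.78 for the members and 0.48 for all tested, the median coefficient of variation over the heifers was 72.4% and 55.4%, and the median of the mean levels was 27.0 CPM and 65.9 CPM. At least 1 heifer had no count for 22 of the 42 members (52.4%), against 37.5% of all tested. Such zeros made up 39 of the 294 values in FH and 32 of 294 in SFH. The absolute log2 fold change was beyond 0.5 in 11 members, each with a standard error too large for the test to be passed.

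**Figure D4:**
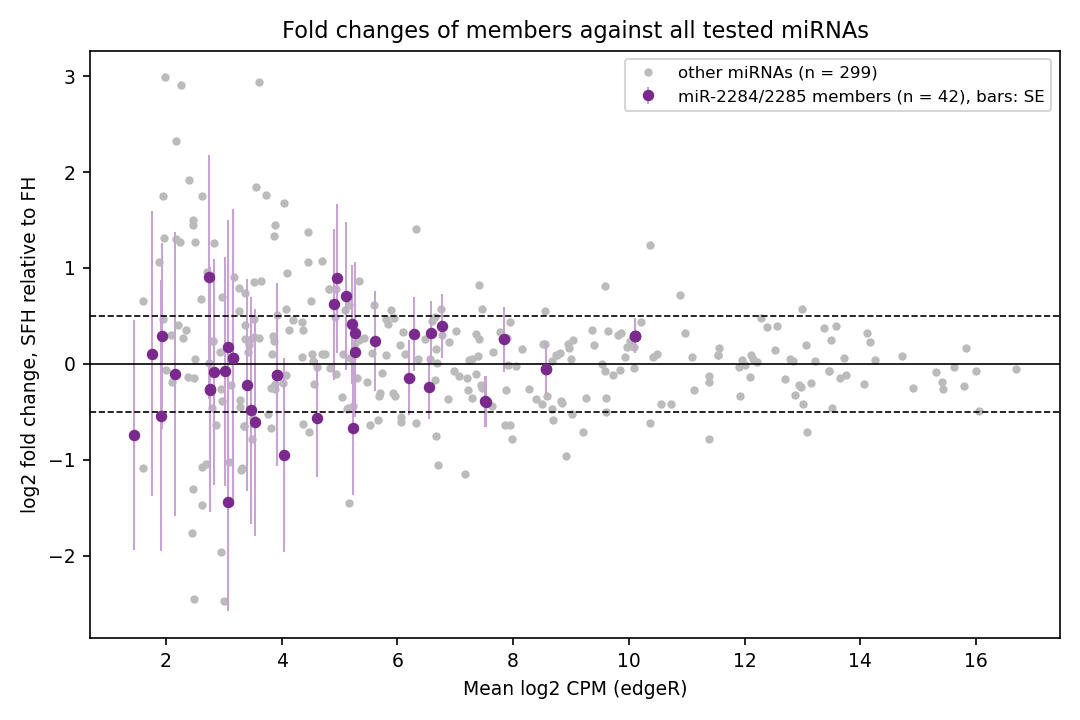
Log2 fold change of SFH relative to FH against mean log2 CPM for the 42 members (purple, bars are standard errors) and the 299 other tested miRNAs (grey), dashed lines at ± 0.5. The members with the highest levels, on the right, lie between the lines, and the 11 members beyond the lines have long error bars.

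Among the leading members, bta-miR-2284x was measured best. Its level was 714 CPM at the lowest, 974 CPM at the median and 1249 CPM at the highest in FH, and 880, 1296 and 1631 CPM in SFH. Of the 7 SFH heifers, 5 lay above the FH median, and the ranges overlapped. Its means were 970 ± 189 CPM and 1248 ± 251 CPM (SD, n = 7), and the log2 fold change was 0.29 (SE 0.18, 95% interval −0.09 to 0.68). In edgeR's quasi-likelihood test across all 341 miRNAs the unadjusted p was 0.125 and the adjusted p was 0.890. The exact permutation p was 0.0874. These were the smallest edgeR p and the smallest adjusted p of the superfamily, and the interval leaves room for a rise of up to 0.68 and for a small decrease. The values of bta-miR-2284y and bta-miR-2285av rest on nearly the same counts (log2 fold change 0.29 for both).

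bta-miR-2284aa and bta-miR-2284z were 204 CPM at the lowest, 371 CPM at the median and 484 CPM at the highest in FH, and 249, 313 and 627 CPM in SFH. The FH values lay within a narrower span, with the lowest heifer of all, 31, in FH and the highest, 23, in SFH. Their log2 fold change was −0.05 (SE 0.26, 95% interval −0.60 to 0.50, edgeR adjusted p = 0.977).

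bta-miR-2285t was between 85.4 and 384 CPM in FH (median 193 CPM) and between 154 and 382 CPM in SFH (median 269 CPM), with 5 of 7 SFH heifers above the FH median. Its log2 fold change was 0.25 (SE 0.34, edgeR adjusted p = 0.947). The shared counts of bta-miR-2285by and bta-miR-2284ab ran the other way. For bta-miR-2284ab the level was 123 to 326 CPM in FH (median 167 CPM) and 131 to 193 CPM in SFH (median 161 CPM), and the log2 fold change was −0.39 (SE 0.27, 95% interval −0.95 to 0.16, edgeR adjusted p = 0.898). The SFH heifers were closer together than the FH heifers (SD 21.2 against 78.5 CPM), a difference of spread that was not tested.

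Of the members next in level, bta-miR-2285k was 45.2 to 155 CPM in FH (median 95.8 CPM) and 90.8 to 167 CPM in SFH (median 123 CPM), a log2 fold change of 0.40 (SE 0.34). The 3 lowest heifers were all FH. bta-miR-2285aa was 54.1 to 131 CPM in FH and 74.3 to 168 CPM in SFH, with a log2 fold change of 0.32 (SE 0.33). For bta-miR-2285p the ranges were 35.0 to 114 CPM and 43.7 to 153 CPM, and the log2 fold change was 0.31 (SE 0.39). The SFH heifers above the FH median were 5 of 7 for bta-miR-2285k, 7 of 7 for bta-miR-2285aa and 6 of 7 for bta-miR-2285p. In bta-miR-2284w and bta-miR-2285bc 4 of 7 did, with log2 fold changes of −0.25 (SE 0.33) and −0.14 (SE 0.39). Without SFH heifer 30 the log2 fold change of bta-miR-2285bc was 0.06.

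**Figure D5:**
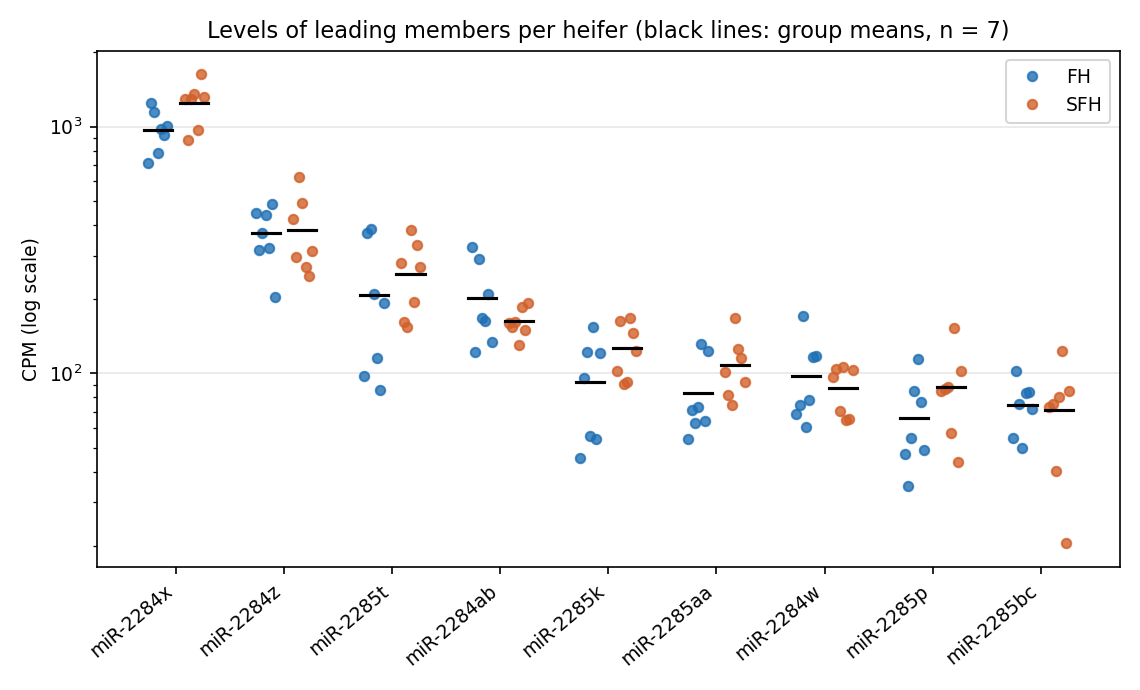
CPM (log scale) of 9 members with distinct counts in each heifer (FH in blue, SFH in orange, black lines are group means, n = 7). miR-2284z stands also for miR-2284aa, miR-2284ab for miR-2285by, and miR-2284x for miR-2284y and miR-2285av. The groups overlap in each member.

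The members found in all 14 heifers below this level varied more. bta-miR-2284h-5p was 7.98 to 99.5 CPM in FH and 31.9 to 86.1 CPM in SFH (log2 fold change 0.24, SE 0.53). bta-miR-2285bf was 6.76 to 79.7 CPM in FH and 1.15 to 81.3 CPM in SFH, with 1 of 7 SFH heifers above the FH median (log2 fold change −0.67, SE 0.70). bta-miR-2285bn was 2.89 to 74.1 CPM in FH and 15.8 to 101 CPM in SFH (log2 fold change 0.41, SE 0.62). bta-miR-2285f, with 1 of its 2 genes within TBK1, a kinase of innate immune signalling, was 4.86 to 67.2 CPM in FH and 6.82 to 30.8 CPM in SFH (log2 fold change −0.57, SE 0.62). bta-miR-2284k was low throughout, at 1.27 to 3.31 CPM in FH and 1.54 to 6.06 CPM in SFH (log2 fold change 0.29, SE 0.97). Among all 42, the coefficient of variation was smallest in bta-miR-2284y and bta-miR-2285av (23.2%) and largest in bta-miR-2284m (153%).

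The 3 members with the most negative fold changes had low levels and were uneven. bta-miR-2285ce was 2.19 to 33.6 CPM in FH (median 8.41 CPM) and 0 to 12.3 CPM in SFH (median 3.59 CPM), with the lowest log2 fold change of the superfamily, −1.44 (SE 1.14, 95% interval −3.81 to 0.93, edgeR adjusted p = 0.947). Its exact permutation p of 0.0845 was the smallest of any member. bta-miR-2285bt was 0 to 39.9 CPM in FH and 0 to 27.5 CPM in SFH (log2 fold change −0.95, SE 1.01), with 2 of 7 SFH heifers above the FH median. bta-miR-2284m was 0.444 to 13.7 CPM in FH and 0.975 to 2.56 CPM in SFH. Its log2 fold change was −0.74 (95% interval −3.24 to 1.76), although all 7 SFH heifers lay above the FH median of 0.887 CPM, and FH heifer 24 alone held the value of 13.7 CPM. On the log2 scale of the permutation test the difference was 0.07, of the other sign, and without heifer 24 the edgeR log2 fold change was 0.73.

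On the other side, bta-miR-2285bz had the highest log2 fold change, 0.90 (SE 1.27), with 0 to 7.41 CPM in FH and 0 to 19.8 CPM in SFH. bta-miR-2285cj was 0.443 to 40.5 CPM in FH and 15.8 to 101 CPM in SFH (log2 fold change 0.89, SE 0.78). Its 2 lowest heifers, 20 and 29, were FH, and the medians of the groups were close, 25.9 and 25.1 CPM. The counts of bta-miR-2285cj and bta-miR-2285bn were equal in 2 heifers, with 399 each in SFH heifer 30. In the others they differed by up to 94.7%. Whether these 2 members are separate measurements was not tested. bta-miR-2285au was 0 to 55.4 CPM in FH (median 11.1 CPM) and 20.3 to 69.1 CPM in SFH (median 44.3 CPM), with a log2 fold change of 0.71 (SE 0.77, 95% interval −0.90 to 2.32, edgeR adjusted p = 0.947). All 7 SFH heifers lay above the FH median, and the ranges overlapped. By limma-voom, fitted across all 341 miRNAs, its log2 fold change was 2.25 with an unadjusted p of 0.0215 and an adjusted p of 0.479. Without FH heifer 31, which had no count for it, the limma-voom log2 fold change was 1.32 with an unadjusted p of 0.0530, and the call was lost. In that fit, chosen after seeing the data, 1 of 41 members passed the thresholds, against 22 of all 336 (6.55%). That member was bta-miR-2284v, named after its values were seen. With all heifers, limma-voom gave it a log2 fold change of 2.24 (unadjusted p 0.0215, adjusted p 0.479). Without heifer 31 it kept the limma-voom call, at 1.36 (unadjusted p 0.0493, adjusted p 0.625).

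Some members were at 0 in 1 heifer and well above the floor in all others, and 4 of them are named here after their values were seen. In FH heifer 31, bta-miR-2285au and bta-miR-2284v had no count, whereas their medians over the heifers were 99.5 and 78.5 counts. In FH heifer 20, bta-miR-2285b and bta-miR-2285aj-5p had no count, with medians of 80.0 and 101 counts. A count of 0 allows up to 0.904 CPM in heifer 31 and 1.33 CPM in heifer 20. The lowest level of bta-miR-2285b in any other heifer was 4.04 CPM, and that of bta-miR-2285aj-5p 15.9 CPM. bta-miR-2284v and bta-miR-2285au had equal counts in 4 heifers, the shared zero included, and differed by up to 44.2% in the others.

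No relation between the 2 leading profiles was detected across heifers. Across the 14 heifers, log2 CPM of bta-miR-2284x and bta-miR-2284aa gave Pearson's r of −0.03 (permutation p = 0.906, adjusted p = 0.913 over the 10 pairs of the 5 leading members) and Spearman's rho of 0.10 (permutation p = 0.725, adjusted p = 0.725). Within FH r was −0.17 (exact permutation p = 0.705) and within SFH 0.15 (exact permutation p = 0.743). Without heifers 30 and 20, which lay farthest from the median of bta-miR-2284x, r was 0.36. The pairs that share counts, such as bta-miR-2284y and bta-miR-2285av (r = 1.0), repeat the same counts and give no second measurement. All 10 pairs come from the 2 leading profiles, so the adjusted p does not stand for 10 separate comparisons.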

How the data were processed

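Small RNA of PWBC was sequenced from 14 heifers (7 FH, 7 SFH). The authors trimmed adapters and end bases with Cutadapt, ran miRDeep2 on the ARS-UCD1.2 genome and on miRBase, and deposited read counts for each mature miRNA and precursor, without normalization (1207 entries). They also deposited CPM values of 341 miRNAs. These equal the deposited counts scaled to 1000000 over the 341 (largest relative difference 4.8e-15), and the 341 names are those tested here. Per the labels, FastQC 0.11.9, MultiQC 1.12, edgeR 3.28.1 and DESeq2 1.26.0 were used.

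Of several entries of a name, that with most counts was used, and the CPM of the text refers to all 1030 names. miRNAs with at least 1 CPM in at least 7 heifers were tested with TMM factors and the quasi-likelihood test of edgeR 4.0.16 (R 4.3.3), with group as the only term, with p of 0.05 or less and log2 fold changes of 0.5 or more in size as thresholds and Benjamini-Hochberg adjustment over the 341. The standard error was the fold change over the root of F. Exact two-sided permutation tests used log2(TMM-normalized CPM + 0.5), with a smallest possible p of 0.000583. DESeq2 1.42.0, limma 3.58.1, other scaling, filters and uses of the entries, and leaving out each heifer were alternatives. The test was also run on simulated counts, but the outcome is not given here and no result rests on it. Joins, permutations and plots were made in Python 3.11.15 (scipy 1.17.1, pandas 2.3.3, numpy 2.4.6, matplotlib 3.10.9).

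Named members were the 8 with the highest mean CPM, those with an unadjusted p of at most 0.05 or else the 5 with the smallest p, the 3 highest and the 3 lowest fold changes, the extremes of the coefficient of variation, and the tested members with a count in all heifers. Any other is said to be named after its values were seen. The members and lists were chosen with earlier results of these data known, and the 5% tolerance for shared counts was set after the counts were seen. Mature sequences were not used here. Each library is 1 animal, and the sources used here name no preparation batch.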

Additional observations from a re-analysis of the deposited data

Results flagged for a closer look

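For each of the 24 named members, for the share of the superfamily with all members and with shared counts taken once, and for the number of members with a count, the most distant heifer of each group of 7 was compared with the spread of its group by Dixon's criterion at its 95% level. Of 54 groups, 3 held a heifer that stood apart. For separate groups of normally distributed values, chance alone flags about 1 in 20. Several named members share counts and the CPM were not put on a log scale, so that rate is only a rough guide here. In bta-miR-2284m, FH heifer 24 was the highest with 13.7 CPM, against 1.64 CPM in the next FH heifer. In bta-miR-2285cj, SFH heifer 30 was the highest with 101 CPM, against 51.4 CPM in the next, and bta-miR-2285bn had the same count in that heifer. In bta-miR-2284k, FH heifer 25 was the lowest with 1.27 CPM, against 2.66 CPM in the next, which amounts to a difference of few counts.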

How the results depend on the processing

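The number of members past the thresholds was 0 under the other scalings, DESeq2, stricter filters, summed, separate or lowest entries, identical counts entered once, library total as a covariate, and in all 14 fits without 1 heifer (smallest member p 0.0567 with edgeR). It was 2 with limma-voom (bta-miR-2284v, log2 fold change 2.24, and bta-miR-2285au, 2.25) and 1 of 41 (bta-miR-2284v, 1.36), with 22 of 336 over all miRNAs (6.55%), with limma-voom without FH heifer 31, an alternative added after seeing the data. Without the CPM filter it was 19 of 107, with 126 of 614 over all miRNAs (20.5%). These 19 had a count in 1 to 3 heifers. Over all miRNAs 13 passed, against 23 with limma-voom, and 11 to 21 without 1 heifer (21 without FH heifer 24, 20 without FH heifer 27).

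For the difference in mean log2 CPM of the 24 named members, with its permutation p, 449 of 480 alternative values kept direction and side of the threshold, and 18 changed sign. bta-miR-2284aa and bta-miR-2284z gave 0.0203 without scaling factors and −0.197 to 0.0669 without 1 heifer. bta-miR-2285by gave 1.60 with its lowest entry. bta-miR-2284m gave −0.0035 with a pseudocount of 1 and −0.0803 to 0.544 without 1 heifer. The edgeR log2 fold changes of the report changed sign in 4 of the 24 members when 1 heifer was left out, ranging from −0.18 to 0.08 for bta-miR-2284aa and bta-miR-2284z, −0.93 to 0.73 for bta-miR-2284m (above 0 without FH heifer 24) and −0.31 to 0.06 for bta-miR-2285bc (above 0 without SFH heifer 30). Those of bta-miR-2285t (0.11 to 0.46), bta-miR-2285bn (0.03 to 0.71) and bta-miR-2284h-5p (0.03 to 0.63) kept their sign. The difference in members with a count was 3.17 without FH heifer 20, against 5.86. The correlation of bta-miR-2284x with bta-miR-2284aa was 0.15 within SFH and 0.36 without heifers 30 and 20. By exact permutation, bta-miR-2284x, bta-miR-2284y and bta-miR-2285av had unadjusted p of 0.0431 to 0.0455 without scaling factors and 0.0338 without SFH heifer 21. Unadjusted p under the threshold also came for bta-miR-2285ce without SFH heifer 28 (0.0367), bta-miR-2285bt without FH heifer 20 (0.0321), bta-miR-2284m without FH heifer 24 (0.0379), bta-miR-2285k without FH heifer 27 (0.0460) and bta-miR-2285au without FH heifers 20, 22 or 24 (0.0355 to 0.0449). The causes were not tested. No paired analysis was possible because each heifer is a different animal of 1 group and the groups share no numbers. Library depth limits members near 1 CPM, where the floor of 3 counts is 0.549 to 1.71 CPM.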
